A study of Homo sapiens with 16 samples.

Results

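The promoters of 43 genes that copy the genome and divide the cell were followed in ATAC-seq data from Cal33 and SAS, established cell lines of head and neck squamous cell carcinoma. A transposase cuts open DNA in this assay, and the count of fragments in a region, called a peak, reads how accessible its chromatin is. The genes fall into 6 roles: 15 of origin licensing and the replicative helicase, 8 of the replication fork, 3 of nucleotide supply, 4 of S phase entry, 6 mitotic cyclins and kinases, and 7 of the spindle, its checkpoint and the chromosomes. The deposited annotation names a member as the nearest promoter of 99 of the 164980 peaks, 34 of promoter class and 65 of other classes, and these belong to 36 of the 43 genes. It uses 1 start per gene, so the promoter peaks of other members carry the identifier of a neighbouring gene. The peak that covers the RefSeq start was therefore also taken for each gene, which gave 43 start peaks, 31 inside the 99 and 12 outside. Together they make 111 member peaks, of which 68 do not cover the start. The start peaks were 822 to 2253 bp wide. Among protein-coding genes with a RefSeq promoter entry, 7 of them also cover the start of another gene (AP4M1 with MCM7, VPS35 with ORC6, TPRA1 with MCM2, PRPF38A with ORC1, CSTF1 with AURKA, PXMP2 with POLE and CDS2 with PCNA). Starts of genes without such an entry were not searched, so other member peaks may be shared too. A change in a shared peak cannot be given to either gene alone.

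Each line was transfected with siRNA against ITGA7, the gene of an integrin chain in laminin receptors (siITGA7), or with an siRNA that targets no gene (siControl). All cells were HPV-negative, were moved into laminin-rich matrix 24 h after transfection and gave nuclei at 48 h. With 2 lines and 2 treatments there were 4 groups of 4 biological replicates, and the study asks how accessibility differs with ITGA7 depletion within a line. The labels describe the cultures as asynchronous, so each library averages over cells in all phases of the cycle. ATAC-seq counts DNA, so the loss of ITGA7 RNA cannot be read from these files.

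Before S phase, the origin recognition complex, CDC6 and CDT1 load the MCM2 to MCM7 ring onto origins, and CDC45 and GINS turn it into the active helicase. Cyclin E with CDK2 starts S phase, and cyclin B with CDK1 drives entry into mitosis. Promoters of the first kind of gene are known to carry sites for E2F factors. Promoters of mitotic genes are known for an element called CHR, bound by the MuvB complex, and for CCAAT boxes bound by NF-Y.

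The promoters below belong to the members whose start peak was called lower with the smallest p, 4 in Cal33 (CDC20, MCM3, POLA1 and TOP2A) and 3 more in SAS (MCM6, POLE and ORC1). They are shown for the E2F and CHR letters that promoters of these kinds are known for. Each runs 5′ to 3′ on the gene's strand from 250 bases before to 50 bases after the RefSeq start (build GRCh38.p14). Capitals mark E2F letters (TTTCCCGC, TTTCGCGC, TTTGCCGC or TTTGGCGC) and CHR letters (TTTGAA or TTCGAA) on either strand, and overlapping matches run together.
CDC20, chr1:43358731-43359030, plus strand: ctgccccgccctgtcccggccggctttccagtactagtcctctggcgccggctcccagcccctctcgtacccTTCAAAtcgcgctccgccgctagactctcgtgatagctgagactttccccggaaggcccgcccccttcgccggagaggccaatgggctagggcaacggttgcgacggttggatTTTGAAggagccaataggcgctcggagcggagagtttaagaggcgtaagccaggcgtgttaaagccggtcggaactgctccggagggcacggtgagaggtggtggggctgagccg
MCM3, chr6:52284693-52284992, minus strand: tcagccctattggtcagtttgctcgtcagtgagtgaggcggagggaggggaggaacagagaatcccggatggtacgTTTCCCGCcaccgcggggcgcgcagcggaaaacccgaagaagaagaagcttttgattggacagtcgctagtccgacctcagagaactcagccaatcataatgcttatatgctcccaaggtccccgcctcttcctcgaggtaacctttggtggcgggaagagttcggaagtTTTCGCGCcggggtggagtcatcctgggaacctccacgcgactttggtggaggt
POLA1, chrX:24693668-24693967, plus strand: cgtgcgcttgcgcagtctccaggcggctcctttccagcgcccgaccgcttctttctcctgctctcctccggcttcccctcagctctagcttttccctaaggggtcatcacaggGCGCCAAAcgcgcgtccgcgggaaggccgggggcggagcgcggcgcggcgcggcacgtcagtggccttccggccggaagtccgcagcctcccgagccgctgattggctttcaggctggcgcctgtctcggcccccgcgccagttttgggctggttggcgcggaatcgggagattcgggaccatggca
TOP2A, chr17:40417847-40418146, minus strand: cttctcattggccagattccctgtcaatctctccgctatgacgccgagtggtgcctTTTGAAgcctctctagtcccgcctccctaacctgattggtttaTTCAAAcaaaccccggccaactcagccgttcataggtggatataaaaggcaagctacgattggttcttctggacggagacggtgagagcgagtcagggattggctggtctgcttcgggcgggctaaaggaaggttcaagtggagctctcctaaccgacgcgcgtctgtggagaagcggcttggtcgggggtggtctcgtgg
MCM6, chr2:135876394-135876693, minus strand: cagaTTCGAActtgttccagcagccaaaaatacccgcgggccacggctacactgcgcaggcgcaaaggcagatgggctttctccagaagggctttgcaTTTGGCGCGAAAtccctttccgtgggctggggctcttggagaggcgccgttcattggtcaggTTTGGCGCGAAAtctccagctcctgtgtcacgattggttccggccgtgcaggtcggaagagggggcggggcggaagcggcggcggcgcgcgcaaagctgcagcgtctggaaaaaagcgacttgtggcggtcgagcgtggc
POLE, chr12:132687293-132687592, minus strand: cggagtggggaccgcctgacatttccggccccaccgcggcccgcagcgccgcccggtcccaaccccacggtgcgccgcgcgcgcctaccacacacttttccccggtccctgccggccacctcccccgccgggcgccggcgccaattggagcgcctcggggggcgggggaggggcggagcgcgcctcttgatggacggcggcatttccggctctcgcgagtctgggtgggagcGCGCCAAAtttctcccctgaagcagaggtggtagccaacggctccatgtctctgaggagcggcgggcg
ORC1, chr1:52404374-52404673, minus strand: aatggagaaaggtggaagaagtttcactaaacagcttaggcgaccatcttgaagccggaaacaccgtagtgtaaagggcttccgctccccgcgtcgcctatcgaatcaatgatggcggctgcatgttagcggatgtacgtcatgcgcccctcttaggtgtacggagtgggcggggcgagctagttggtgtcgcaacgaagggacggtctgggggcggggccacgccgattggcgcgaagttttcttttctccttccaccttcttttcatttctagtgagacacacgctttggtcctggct
The CDC20 and TOP2A promoters hold 2 CHR matches each and no E2F match. MCM3 holds 2 E2F matches, POLA1 and POLE hold 1 each, and MCM6 holds 4 in overlapping pairs beside 1 CHR match. The ORC1 window holds neither set of letters.

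RefSeq promoter windows were found for 38 of the 43 members, and all 38 lie whole under the start peak. E2F letters occurred in 15 of the 38 (39.5%) against 703 of the 15842 windows of protein-coding genes (4.44%). The match divided by role: 14 of 26 windows of the replication, nucleotide and S phase entry genes (53.8%) held E2F letters, and 1 of 12 windows of the mitotic genes (8.33%) did, that of CDK1. CHR letters showed the opposite order, with 8 of 12 mitotic windows (66.7%), 2 of 26 of the others (7.69%) and 13.5% of all windows. CCAAT on either strand occurred in 28 of 38 member windows (73.7%) and 36.4% of all windows, and both CHR and CCAAT in 7 of the 12 mitotic windows (58.3%) against 5.57% of all. Member windows had a median GC content of 63.7%, close to the 62.7% of all windows, and a median of 28 CG dinucleotides against 22. A match is a run of letters and not a shown binding site.

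**Figure D1:**
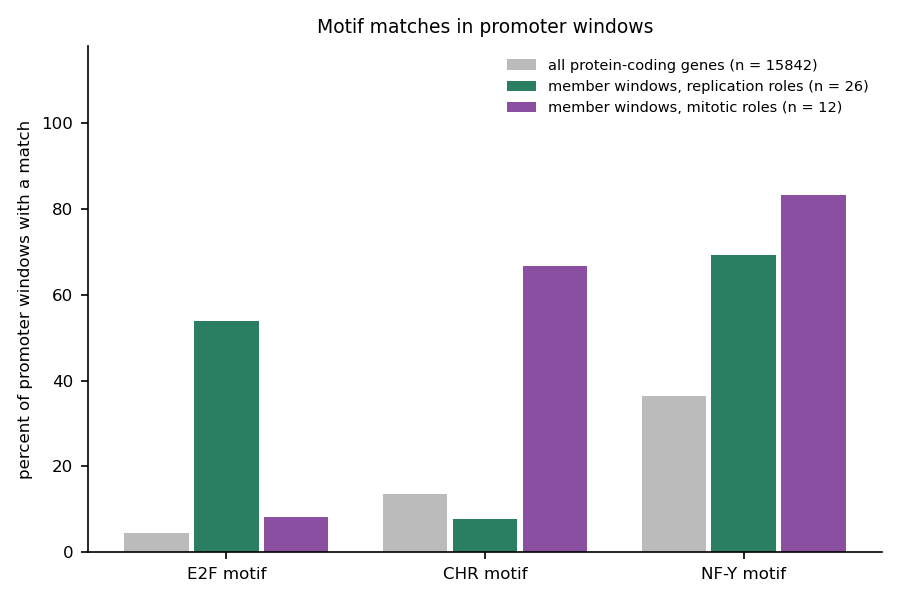
Percent of 300-base RefSeq promoter windows with a match to the E2F, CHR or NF-Y (CCAAT) letters on either strand. E2F matches are most frequent in the 26 replication-role windows (53.8%) and CHR matches in the 12 mitotic windows (66.7%), against 4.44% and 13.5% of all 15842 windows.

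Libraries differed in depth and in how many counts fell on promoters, and the group means of both differed between the treatments. Totals in peaks were 3980563 to 8367079 in Cal33 siControl, 8646532 to 13285086 in Cal33 siITGA7, 1766033 to 4870187 in SAS siControl and 758590 to 1867047 in SAS siITGA7. The share of counts in start peaks of all protein-coding genes was 37.4% ± 2.8 (SD, n = 4) in Cal33 siControl and 34.6% ± 0.76 in siITGA7. These groups overlapped, with 33.8% to 39.9% in siControl and 34.0% to 35.7% in siITGA7. The highest siControl libraries, replicates 1 and 2, had 2 sequencing runs, and the lowest, replicate 3, had 1. In SAS it was 27.0% ± 0.53 and 23.4% ± 0.32. The 43 member start peaks took 0.166% ± 0.014 and 0.142% ± 0.0040 of the counts in Cal33, and 0.113% ± 0.0024 and 0.0936% ± 0.0028 in SAS. Depth limits the members more in SAS, where the largest count of a start peak in any library was 27 to 445, than in Cal33, where it was 71 to 1375. The best peak of each of 8 squamous markers (KRT5, TP63 and others) stood at a median percentile of 98.3 among all peaks in Cal33 and 97.5 in SAS. For 8 markers of fibroblasts, endothelium and blood it was 87.1, from 51.5 to 96.5, and 93.5, from 73.5 to 98.2, so open chromatin separated the lists only in part and least in SAS. In these bulk libraries, fewer cells with an open promoter and less opening per cell cannot be told apart.

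Levels are given as log2 CPM, the log2 of counts scaled by library size and TMM factor, with a prior count of 2, and levels of different genes are compared per kb of peak. Levels were available for all 43 start peaks in Cal33 and for 42 in SAS. RFC1 in SAS was too low to be tested and is left out of the SAS ranks and median. Among peaks with a level, ORC6 stood in the highest 3 and PRIM1 and RFC3 in the lowest 3 in both lines. In Cal33 siControl the highest start peaks per kb were AURKA, a kinase of the spindle poles, at 6.45, ORC6, a subunit of the origin recognition complex, at 6.16, and CDC20 at 6.02. The lowest were PRIM1, the small primase subunit, at 2.68, and the clamp loader subunits RFC1 at 2.79 and RFC3 at 2.82. In SAS siControl ORC6 led at 5.85, followed by CCNB1, the cyclin B1 gene, at 5.61 and MCM7, a helicase subunit, at 5.59. Among the 42 with a level in SAS, CCNE1, the cyclin E1 gene, was lowest at 2.93, then PRIM1 at 3.13 and RFC3 at 3.19. The medians over members were 4.78 in Cal33 and 4.54 in SAS, on scales set separately in each line. RFC1 and RFC3 in Cal33, with SDs of 0.23 and 0.19 between libraries, did not differ beyond their spread, and neither did CCNB1 and MCM7 in SAS, both with an SD of 0.14. ORC6 in SAS, with an SD of 0.03, stood above them by more than the spread.

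In Cal33, siITGA7 libraries were less accessible than siControl at 12 of the 43 member start peaks (adjusted p under 0.05, edgeR quasi-likelihood test over all 75230 tested peaks), which is 27.9% of members. Of all protein-coding start peaks 11.1% were called lower and 0.828% higher, so lower calls were frequent at promoters in general. No member start peak was called higher in the main edgeR fit (TMM scaling, all libraries of the line) or by DESeq2. At an unadjusted p under 0.05 in the main fit there were 19 lower and 1 higher, while 2971 of 10023 protein-coding start peaks passed in either direction. The median log2 change was -0.26 over the members and -0.14 over all start peaks, and 41 of 43 members (95.3%) had a negative value against 71.8% of all. Among peaks at or above the median member level, 8 of 22 members (36.4%) and 17.3% of all start peaks were called lower. Of the promoter-class peaks that the annotation itself gives to members, 7 of the 30 tested were called lower, and of its other peaks 2 of 23, the start peaks of E2F1 and CCNA2. The start peaks of CDC20, POLA1 and CCNB1 carry the identifier of another gene there.

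**Figure D2:**
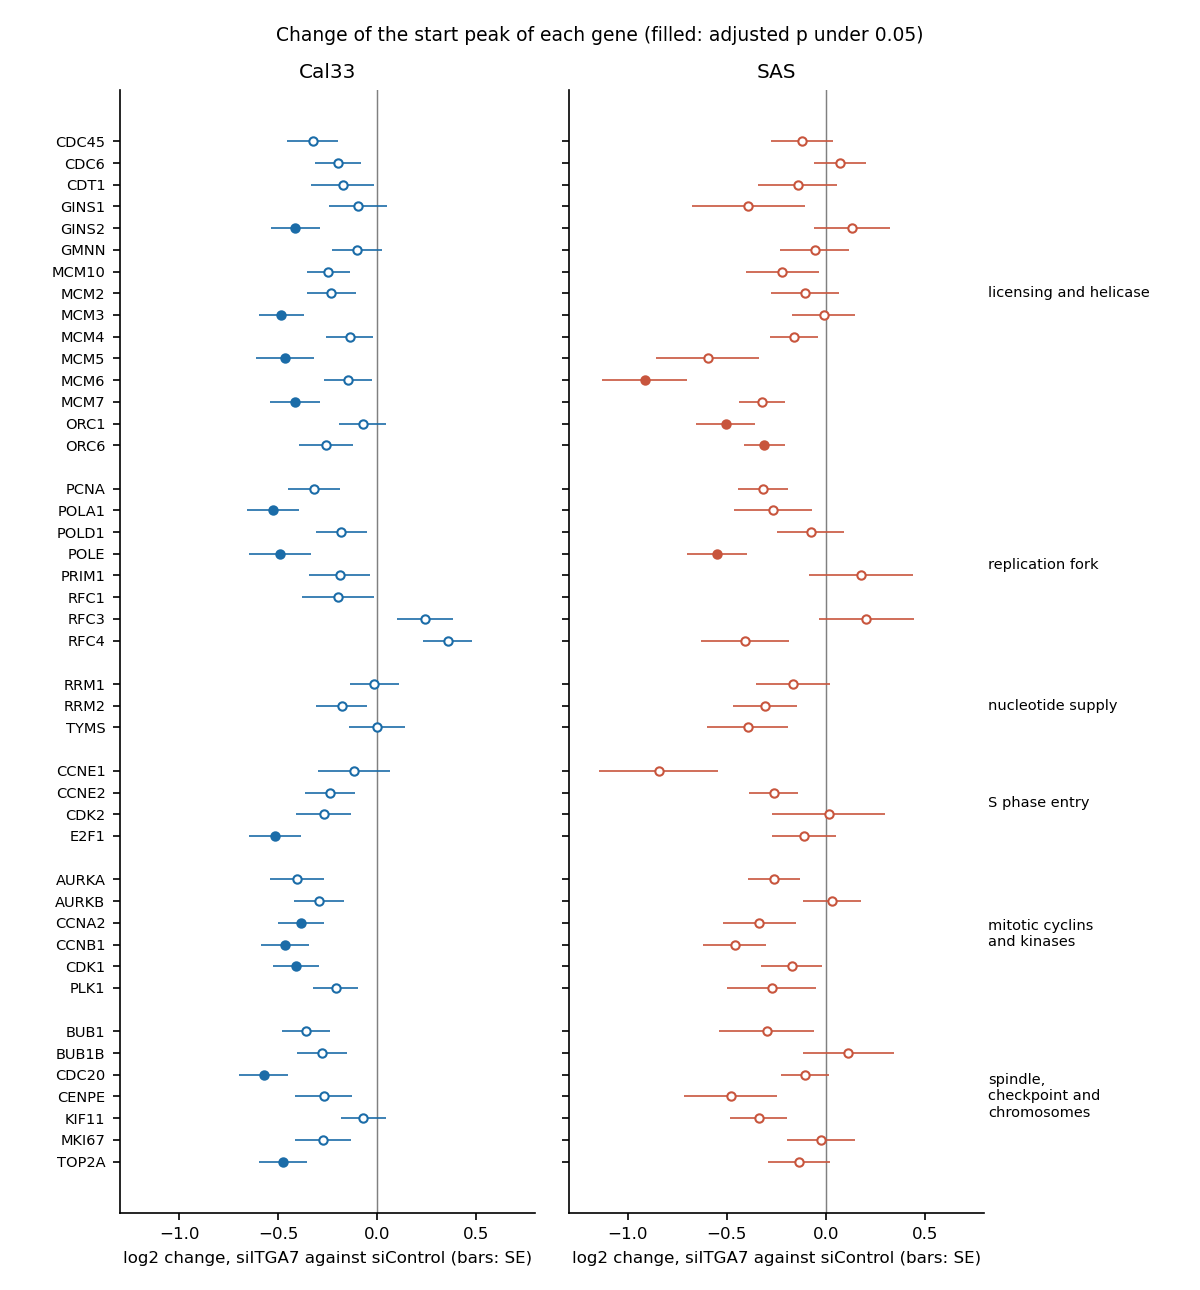
Log2 change of the start peak of each of the 43 genes, siITGA7 against siControl, with SE bars, for Cal33 (left) and SAS (right), n = 4 libraries a group and grouped by role; filled points have an adjusted p under 0.05. In Cal33 12 points are filled and 41 lie below 0; in SAS 4 are filled and 35 of the 42 tested lie below 0.

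Here and below, called peaks were picked by the test on these same libraries, so groups that do not overlap add no support. Helicase genes made up 4 of the 12. MCM3, a subunit of the helicase ring (peak at chr6:52284220-52285416), stood at 5.56, 5.47, 5.53 and 5.34 log2 CPM in siControl replicates 1 to 4 and at 5.08, 5.10, 4.84 and 4.97 in siITGA7, a change of -0.48 ± 0.11 (SE, adjusted p = 0.00636). Every siITGA7 library lay below every siControl library, and the call was kept in each of the 19 other settings tried. Its ring partner MCM7 (chr7:100100372-100102175, shared with AP4M1) had 6.66, 6.76, 6.22 and 6.52 in siControl and 6.03, 6.17, 6.11 and 6.21 in siITGA7 (-0.42 ± 0.13, adjusted p = 0.0320). The groups did not overlap here either, but siControl replicate 3 came close to the highest siITGA7 library, and with the replicate block the adjusted p was 0.0837. GINS2, a subunit of the GINS helicase cofactor (chr16:85688619-85689521), changed by -0.41 ± 0.12 (adjusted p = 0.0300), with siControl at 4.55 to 5.24 and siITGA7 at 4.49 to 4.54. For MCM5 (chr22:35399704-35400711), also of the ring, the change was -0.46 ± 0.15 (adjusted p = 0.0406), but siControl replicate 3 at 3.81 lay inside the siITGA7 range of 3.50 to 4.07. The other 11 licensing and helicase genes did not pass the test. Their values ran from -0.33 for CDC45, which completes the active helicase, to -0.07 for ORC1, and all 15 of the group were negative.

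At the fork, 2 of 8 genes passed, and both code for the catalytic subunit of a replicative polymerase. POLA1, of the polymerase that starts each strand with primase (chrX:24693374-24694317), had 4.83, 5.14, 4.29 and 4.73 in siControl and 4.17, 4.20, 4.29 and 4.22 in siITGA7 (-0.53 ± 0.13, adjusted p = 0.0104). The groups touched, since siControl replicate 3 was at the level of the highest siITGA7 library. POLE, the leading strand polymerase (chr12:132686761-132688072, shared with PXMP2), stood at 5.53, 5.51, 4.71 and 4.68 in siControl and 4.78, 4.70, 4.27 and 4.79 in siITGA7 (-0.49 ± 0.16, adjusted p = 0.0448). Here siControl replicates 3 and 4 lay within the siITGA7 values. The change was -0.08 within the libraries of 1 sequencing run (adjusted p = 0.796) and -0.73 within those of 2. PCNA, the sliding clamp, had a value of -0.32 (adjusted p = 0.119). RFC4, a subunit of the loader that places this clamp, was the exception of the group, with 4.37, 4.17, 4.14 and 3.90 in siControl and 4.57, 4.37, 4.37 and 4.69 in siITGA7 (0.36 ± 0.12, adjusted p = 0.0623). Here the order was turned, and siControl replicate 1 reached the lowest siITGA7 libraries. RFC4 was called higher in 5 of the other settings that kept all 8 libraries, with adjusted p from 0.00350 to 0.0344, among them the fit of promoter-class peaks alone (0.47). RFC3, another loader subunit, also had a positive value of 0.24 (adjusted p = 0.299).

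Among the 4 S phase entry genes E2F1, which codes for a factor of the E2F family, was called. Its start lies in a peak of exon class (chr20:33685501-33686918), with 5.20, 5.49, 4.71 and 5.04 in siControl and 4.68, 4.59, 4.38 and 4.71 in siITGA7 (-0.52 ± 0.13, adjusted p = 0.0116). The lowest siControl and the highest siITGA7 library were level at this rounding. CCNE1, CCNE2 and CDK2 did not pass, at -0.12, -0.24 and -0.27. None of the 3 nucleotide supply genes passed in edgeR, with none at an unadjusted p under 0.05: RRM1 and RRM2, the ribonucleotide reductase subunits, were at -0.02 and -0.18, and TYMS, thymidylate synthase, at 0.00.

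The mitotic cyclins and kinases had the largest share of lower calls, 3 of 6. CCNB1 (chr5:69166662-69167538) had 5.78, 5.66, 5.24 and 5.41 in siControl and 4.95, 5.06, 5.09 and 5.17 in siITGA7 (-0.46 ± 0.12, adjusted p = 0.0142). Its partner kinase CDK1 (chr10:60778030-60779157) had 5.12, 5.37, 4.90 and 5.03 against 4.61, 4.66, 4.77 and 4.73 (-0.41 ± 0.12, adjusted p = 0.0233). CCNA2, the cyclin A2 gene, has its start in a peak of transcription-end class (chr4:121822942-121824411), at 4.67, 4.48, 4.44 and 4.34 against 4.17, 4.12, 3.96 and 4.15 (-0.39 ± 0.12, adjusted p = 0.0338). In all 3 the groups did not overlap, and with the replicate block the adjusted p of CCNA2 was 0.0565. AURKA, the highest member per kb in Cal33, narrowly missed the threshold at -0.40 (adjusted p = 0.0549), and AURKB and PLK1 were at -0.29 and -0.21.

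In the spindle and chromosome group CDC20, which activates the anaphase-promoting complex (chr1:43358163-43359562), had the lowest log2 change of all 43 members. It stood at 6.65, 6.73, 6.20 and 6.42 in siControl and 5.82, 5.99, 5.97 and 5.95 in siITGA7 (-0.57 ± 0.13, adjusted p = 0.00374). TOP2A, the topoisomerase that untangles sister chromatids (chr17:40417339-40418449), stood at 6.10, 6.23, 5.84 and 6.22 against 5.51, 5.54, 5.76 and 5.66 (-0.48 ± 0.12, adjusted p = 0.0112). Neither gene's groups overlapped. The checkpoint kinase BUB1 missed the threshold at -0.36 (adjusted p = 0.0562), BUB1B, MKI67 and CENPE lay between -0.28 and -0.27, and KIF11, the spindle motor Eg5, was at -0.07.

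**Figure D3:**
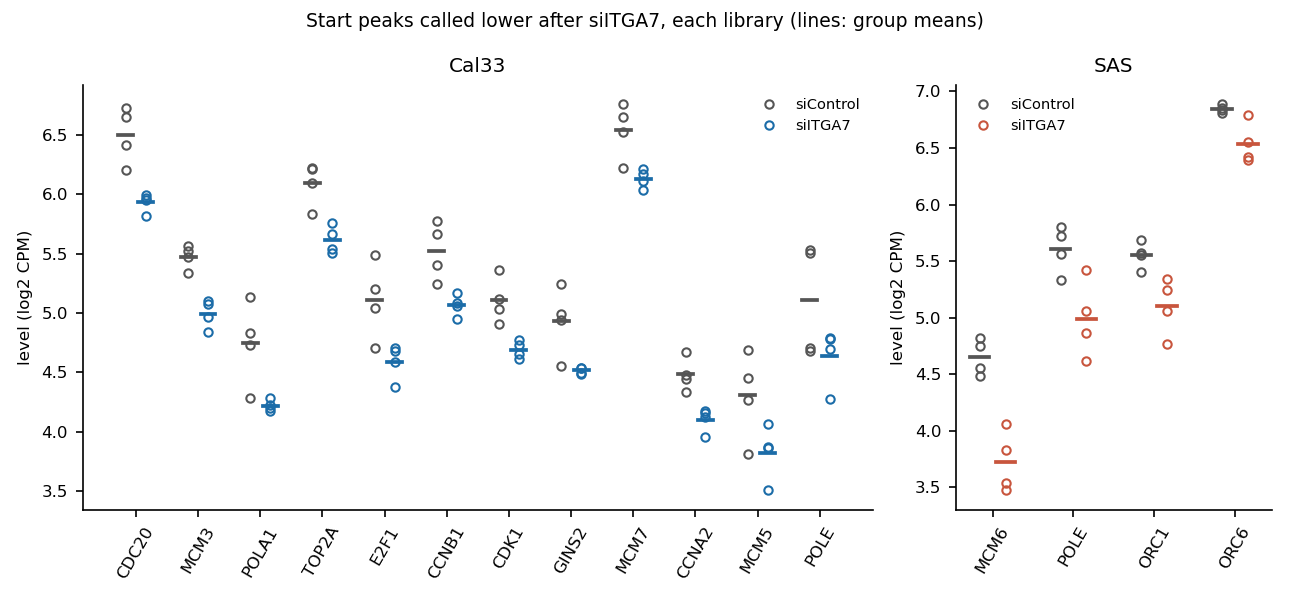
Level (log2 CPM) of each library at the start peaks called lower after siITGA7, 12 genes in Cal33 (left) and 4 in SAS (right); open points are libraries, n = 4 a group, and lines are group means. In Cal33 the groups overlap at POLA1, MCM5 and POLE. The peaks shown were picked by the test on these same libraries, so groups that stand apart here add no support.

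The Cal33 siControl libraries were not alike at these promoters. Replicates 1 and 2, which had 2 sequencing runs, were the highest of their group at 42 of the 43 member start peaks, and replicates 3 and 4, which had 1 run, were the lowest at 42. Across the line, 2-run libraries were higher by a median of 0.23 at member start peaks and 0.20 at all start peaks (log2). With the number of runs as a term, chosen after seeing the data, 12 member start peaks were again lower, among them all 12 named above, with a median of -0.19 against -0.09 for all start peaks, 12.0% of which were called lower. Within the 1-run libraries, 2 siControl and 3 siITGA7, the count fell to 1 (MCM3), with a median of -0.14 against -0.02 for all start peaks. Within the 2-run libraries, 2 against 1, it was 20, on the assumption that the lone siITGA7 library varies like the others, with medians of -0.33 and -0.19. Leaving out 1 library at a time gave 24 lower calls without siControl replicate 3, 5 without siControl replicate 1 or 2 or siITGA7 replicate 1, 4 without siITGA7 replicate 2 or 3, and 9 and 8 without siControl or siITGA7 replicate 4. The shares of all start peaks called in the 1-run, the 2-run and these fits are not given here. Their counts therefore do not compare members with promoters in general. The CDC20 and POLA1 calls were lost in the 1-run libraries alone of 19 other settings, and TOP2A also without siITGA7 replicate 2. MCM5 and POLE were lost in 11 of 19 and CCNA2 in 12 of 18, DESeq2 and total counts among them, while E2F1 was lost in 3 of 18, CCNB1 in 5 of 19, CDK1 in 6, GINS2 in 8 and MCM7 in 9. A fit of promoter-class peaks alone, which moves the median of all start peaks to -0.03, gave 9 lower among 37 members (24.3%) against 12.0% of all.

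From a list of 85 further genes of replication, cell cycle control and mitosis, 77 start peaks were found, and in Cal33, 23 of them (29.9%) were lower and 0 higher, with a median of -0.32, against 11.1% of all start peaks lower. Mitosis genes made up 12 of the 23, from 31, against 6 of 20 control genes and 5 of 26 replication genes. TK1, the thymidine kinase that salvages a DNA precursor (chr17:78186474-78187596), had 6.71, 6.74, 6.01 and 6.28 in siControl and 5.63, 5.67, 5.69 and 5.64 in siITGA7 (-0.80 ± 0.14, adjusted p = 0.00032). The groups did not overlap, and the log2 change was below that of any member. The other 4 with the smallest p were TTK, a spindle checkpoint kinase, at -0.60, LIN37, a MuvB subunit, at -0.60, UBE2C, an enzyme of the anaphase-promoting complex pathway, at -0.64, and CDC25C, the phosphatase that activates CDK1, at -0.58. The CDC25C peak also covers the start of FAM53C, so its change cannot be given to either gene alone. Other peaks of this list may be shared too. Within the 1-run libraries 6 of the 77 were lower, and with runs as a term 24.

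Members with E2F letters in the promoter window were lower in Cal33 in 7 of 15 cases, with a median change of -0.32, and those without in 4 of 23, with a median of -0.25. In SAS the counts were 2 of 15 and 2 of 22, with medians of -0.17 and -0.25. Members with CHR letters were lower in 3 of 10 cases in Cal33 (median -0.28) against 8 of 28 without (-0.24). In SAS the counts were 1 of 10 (median -0.17) and 3 of 27 (-0.27). These splits are descriptions and were not tested.

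**Figure D4:**
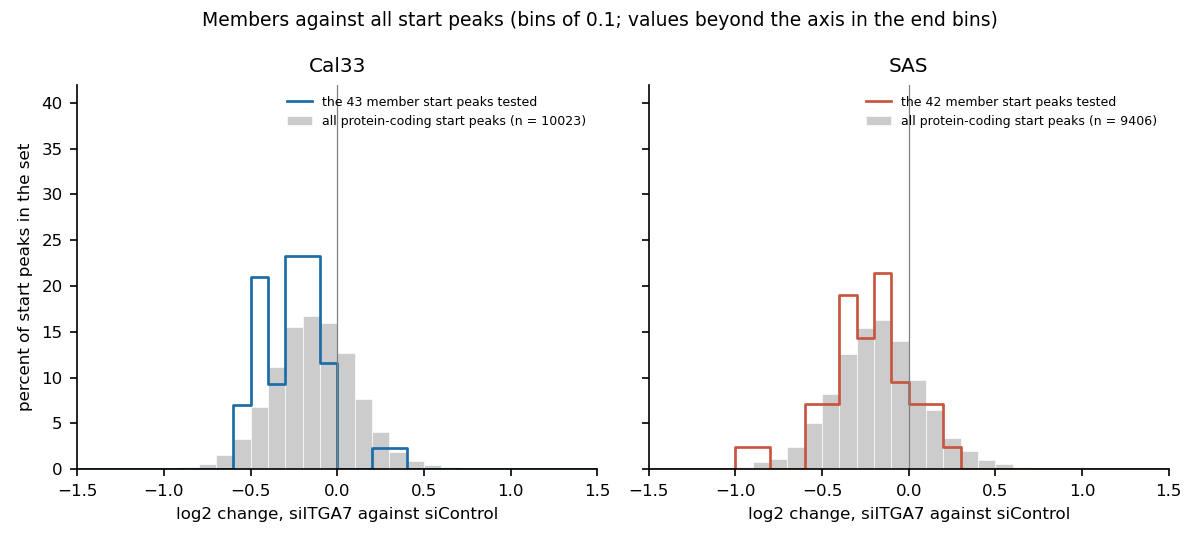
Distribution of log2 changes, siITGA7 against siControl, at all protein-coding start peaks (grey bars, as percent of the set) and at member start peaks (line), in Cal33 (10023 and 43 peaks) and SAS (9406 and 42). The members' median is -0.26 against -0.14 in Cal33 and -0.24 against -0.18 in SAS.

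In SAS, 4 of the 42 member start peaks tested were called lower after siITGA7 (9.52%), against 8.54% of all protein-coding start peaks, a share near that of promoters in general. None was called higher in the main edgeR fit, by DESeq2 or at an unadjusted p under 0.05 in the main fit, against 0.5% of all start peaks called higher. At an unadjusted p under 0.05, 13 of the 42 were lower, while 2498 of 9406 protein-coding start peaks passed in either direction. The median change was -0.24 for members and -0.18 for all start peaks, with 83.3% and 76.3% of values negative. The RFC1 start peak was too low to be tested.

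Of the 4, 3 are licensing and helicase genes and 1 is a fork gene. MCM6, a subunit of the helicase ring (a peak of intron class at chr2:135875586-135876885), stood at 4.82, 4.49, 4.56 and 4.75 in siControl and 3.54, 3.83, 3.47 and 4.06 in siITGA7 (-0.92 ± 0.21, adjusted p = 0.00183). The groups did not overlap, and the call was kept in the 13 other settings in which the peak was tested. POLE had 5.80, 5.57, 5.33 and 5.73 against 4.86, 4.62, 5.06 and 5.42 (-0.55 ± 0.15, adjusted p = 0.0118), with siITGA7 replicate 4 above siControl replicate 3. POLE was the 1 member start peak called in both lines, and its Cal33 call was lost in 11 of 19 other settings. The same count over all protein-coding start peaks was not made. ORC1, the ATPase subunit of the origin recognition complex (chr1:52403684-52405163, shared with PRPF38A), had 5.55, 5.40, 5.57 and 5.69 against 5.24, 5.34, 5.06 and 4.77 (-0.51 ± 0.15, adjusted p = 0.0197). For ORC6 (chr16:46688269-46690269, shared with VPS35) the values were 6.81, 6.85, 6.89 and 6.83 against 6.55, 6.79, 6.42 and 6.39 (-0.31 ± 0.10, adjusted p = 0.0464). For ORC1 and ORC6 the groups did not overlap, but the highest siITGA7 library came close to the lowest siControl library. The ORC6 call was lost in 11 of 16 other settings, among them the replicate block (adjusted p = 0.0575), and the ORC1 call in 6.

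Next in order of p came CCNB1 (-0.46 ± 0.16, adjusted p = 0.0542), whose value matched that in Cal33, then CCNE1 (-0.84, adjusted p = 0.0674) and MCM7 (-0.32, adjusted p = 0.0695). CCNE1 had 3.64, 4.11, 3.73 and 3.43 in siControl and 1.51, 3.10, 2.73 and 3.26 in siITGA7, so the groups were apart, with replicate 1 of siITGA7, the shallowest library, far below the rest. CDC20, MCM3 and TOP2A, the leading genes in Cal33, were at -0.10, -0.01 and -0.14 in SAS. The SAS count depends on the settings: DESeq2 called 1, a minimum mean of 50 counts left 22 members and called 2, and no filter at all called 12, with 22.1% of all start peaks. Promoter-class peaks alone gave 0 of 37, against 2.43% of all, and thinning every library to the smallest gave 0 of 30, against 1.34%. All but 1 of the siITGA7 libraries were shallower than every siControl library in SAS, and all were deeper in Cal33, and the part of depth in the counts of calls was not tested beyond this thinning.

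Of the other pathway genes 7 of 76 start peaks were lower in SAS (9.21%) and 0 higher, all but 1 of them mitosis genes. This share was near the 8.54% of all start peaks. BUB3, a spindle checkpoint protein (chr10:123153902-123155201), had 6.72, 6.73, 6.72 and 6.75 in siControl and 6.08, 6.02, 6.40 and 5.97 in siITGA7 (-0.63 ± 0.11, adjusted p = 1.7e-05). The groups did not overlap, and its value in Cal33, where it was also called lower, was -0.52. CKS2 followed at -0.51, HMMR, a spindle-binding protein, at -0.49, SMC2, a condensin ATPase, at -0.62, and NCAPG, a condensin subunit, at -0.57, beside ANLN and SMC4. The HMMR peak also covers the start of NUDCD2, the NCAPG peak that of DCAF16 and the ANLN peak that of MATCAP2. Their changes cannot be given to either gene alone, and other peaks of this list may be shared too.

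A difference between the lines in the response was not detectable at any member start peak. In the fit of all 16 libraries 0 of 43 member start peaks were called by edgeR or DESeq2 for a change in Cal33 unlike that in SAS, while at an unadjusted p under 0.05 4 were higher and 1 lower, and 0.761% of all tested peaks were called. Of all protein-coding start peaks 0.854% were called higher and 0.134% lower, and 1846 of 10417 had an unadjusted p under 0.05. The smallest adjusted p values, singled out after seeing them, belonged to MCM6 (0.87, adjusted p = 0.0679) and RFC4 (0.87, adjusted p = 0.0741), both with the lower value in SAS. The comparison called 1 member peak away from a start, an exon peak of BUB1 (chr2:110674683-110675206). It stood at 0.45, 0.98, 1.22 and 0.57 in Cal33 siControl and 1.38, 1.45, 1.67 and 1.89 in siITGA7, but at 3.72, 4.11, 3.73 and 3.43 in SAS siControl and 2.20, 3.92, 2.96 and 2.76 in siITGA7. The log2 changes of 0.82 and -0.61 differed by 1.54 ± 0.42 (adjusted p = 0.0470), although neither alone passed the test within its line (adjusted p = 0.0615 and 0.201). The call was lost in 13 of 19 other settings, most of them fits that leave out 1 library, and no library held more than 46 counts in this peak.

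Between the siControl libraries, 33 of 43 member start peaks (76.7%) were lower in SAS than in Cal33 under TMM scaling and 10 were not called, a count that changes with the scaling (20 lower and 3 higher with total counts). None was higher in the edgeR fit with TMM scaling, also at an unadjusted p under 0.05, or by DESeq2. Of all protein-coding start peaks 61.1% were lower and 17.3% higher in the TMM fit. The median difference was -0.72 for members and -0.59 for all. All 6 mitotic cyclins and kinases and all 4 S phase entry genes were called lower, with 12 of 15 licensing and helicase genes, 5 of 8 fork genes, 2 of 3 nucleotide genes and 4 of 7 spindle genes.

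The 5 lowest values belonged to genes of 4 roles. BUB1 had 5.60, 5.74, 5.21 and 5.45 in Cal33 and 3.59, 3.26, 3.73 and 3.47 in SAS (-1.98 ± 0.16, adjusted p = 9.64e-18). CDC45 had 6.50, 6.57, 5.92 and 6.47 against 4.53, 4.62, 4.80 and 4.81 (-1.69 ± 0.15, adjusted p = 7.48e-16). AURKA had 7.24, 7.27, 6.64 and 6.95 against 5.43, 5.21, 5.43 and 5.38 (-1.68 ± 0.15, adjusted p = 5.92e-16). In all 3 the lines were far apart, with Cal33 siControl replicate 3 the lowest of its line. GMNN, which codes for the licensing inhibitor geminin, ranged from 5.79 to 6.29 in Cal33 and from 4.31 to 4.56 in SAS (-1.67 ± 0.15, adjusted p = 5.51e-16). POLD1, the catalytic subunit of polymerase delta, ranged from 5.77 to 6.36 and from 4.31 to 4.56 (-1.63 ± 0.15, adjusted p = 2.15e-15). The smallest differences among those called were CCNA2 at -0.39, GINS1 at -0.49, RFC4 at -0.54, CDK1 at -0.57 and AURKB at -0.61. These were not followed singly through the other settings. MKI67, CENPE, KIF11, CDT1, POLE, MCM2, RRM1, MCM6, PRIM1 and RFC3 were not called, with values from -0.34 to -0.08. Copy number of the locus and accessibility cannot be told apart in these counts. Of the 41 members with other start peaks within 1 Mb, 27 were lower than the median of those neighbours, which itself had a median of -0.62. TOP2A, at -1.58, stood beside neighbours at a median of 0.03, while PLK1, at -1.19, stood beside neighbours at -1.66.

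**Figure D5:**
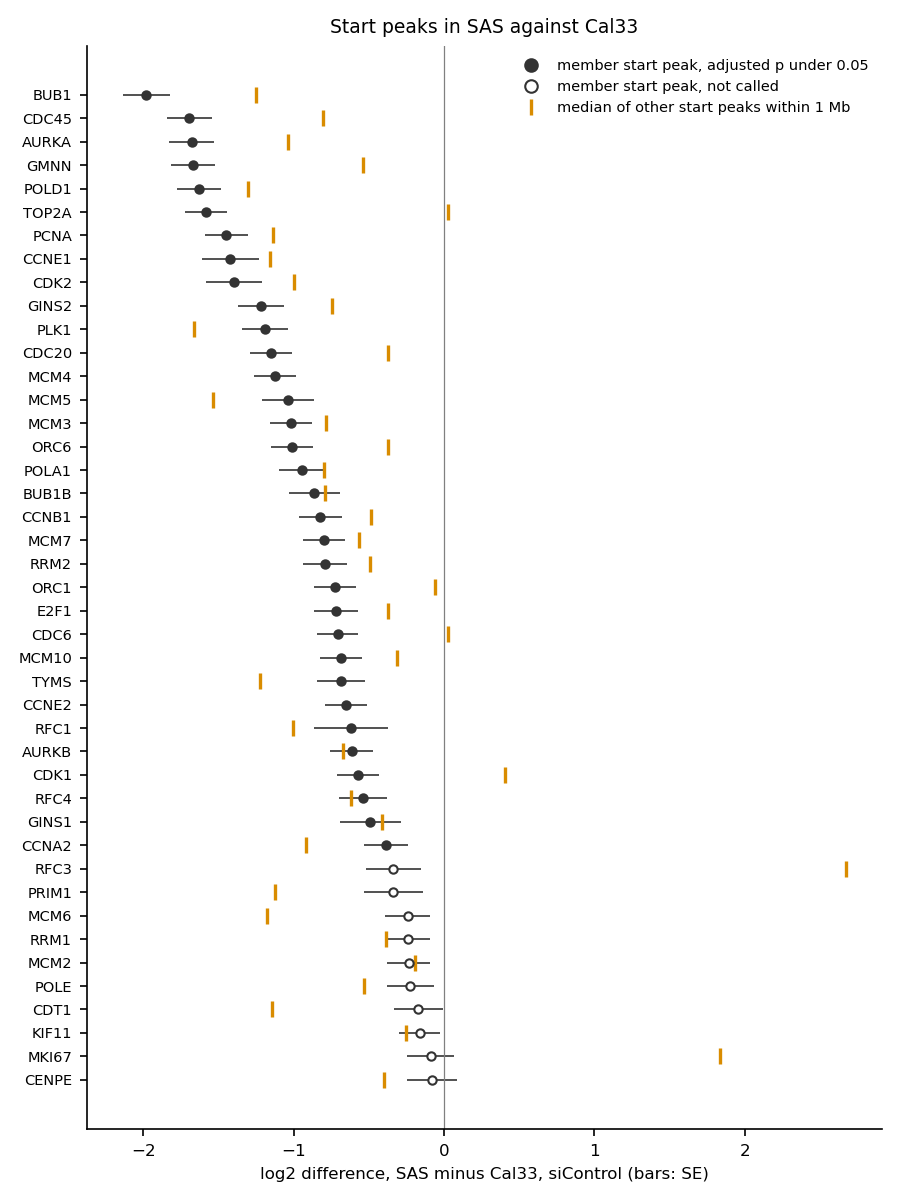
Log2 difference of each member start peak between SAS and Cal33 siControl libraries (points with SE bars, n = 4 a line; filled: adjusted p under 0.05) beside the median of the other protein-coding start peaks within 1 Mb (orange ticks). All 43 points lie below 0 under TMM scaling, from -1.98 for BUB1 to -0.08 for CENPE, while with total counts 3 of them were called higher in SAS.

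This difference rests on how the libraries are scaled. With total counts in place of TMM factors, the median of all start peaks moved to -0.08 and that of members to -0.21. Then 20 members were lower (46.5%) and 3 higher (6.98%), against 39.5% and 32.2% of all start peaks. A minimum mean of 50 counts left 39 members with 15 lower (38.5%) and 9 higher (23.1%), against 36.1% and 33.6% of all, so the lower share was near that of promoters in general. Promoter-class peaks alone gave 25 lower (67.6%) and 2 higher (5.41%) of 37, against 45.7% and 28.9%. BUB1, CDC45, AURKA, GMNN and POLD1 were called lower in all 13 other settings, but with a mean of at least 50 counts their values shrank to -1.24, -0.95, -0.93, -0.93 and -0.89. Of the 77 other pathway start peaks 60 were lower in SAS and 3 higher, the lowest by p being CKS2, a CDK subunit, at -2.71, CCNF, cyclin F, at -2.45, ANLN, the cytokinesis scaffold anillin, at -2.10, WEE1 at -1.84 and PKMYT1 at -2.06, both kinases that restrain CDK1. The 3 higher ones were CDC7, a kinase that activates the loaded helicase, at 1.04, GINS3 at 0.92 and RBL1, which codes for the pocket protein p107, at 0.40. The ANLN peak also covers the start of MATCAP2.

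The 68 member peaks away from the starts lie mostly in introns (27) and between genes (23), and most were too low to test: 22 were tested in Cal33, 12 in SAS and 18 between the lines. In Cal33 1 was called higher, an intron-class peak of MCM4 (chr8:47967369-47967784), and 0 were called lower by edgeR, with 1 lower at an unadjusted p under 0.05, against 5.08% higher and 3.68% lower of all peaks not over a protein-coding start. It had -0.17, -0.91, -0.49 and -0.37 in siControl and 1.01, 1.02, 1.09 and 0.78 in siITGA7 (1.76 ± 0.39, adjusted p = 0.00393), from 1 to 4 counts a library in siControl and 14 to 24 in siITGA7. All 4 siControl libraries lay under the filter's minimum, so the peak entered the test through the siITGA7 libraries alone, and with no filter the adjusted p was 0.00268. The call was lost with DESeq2 alone of the 15 other settings in which the peak was tested. These settings reuse the same libraries, and the way the peak entered the test favours a higher value in siITGA7. Neither the kept calls nor the groups standing apart therefore add support. The MCM4 start peak was at -0.14 (adjusted p = 0.503). In SAS 1 was higher and 1 lower, against 5.02% and 1.47%. The higher one is an intergenic peak before TOP2A (chr17:40423153-40423612), with 3.19, 3.51, 3.17 and 3.10 in siControl and 3.92, 4.24, 3.85 and 4.12 in siITGA7 (0.93 ± 0.25, adjusted p = 0.00872), and at most 30 counts a library. The groups did not overlap, and the call was lost in 4 of 13 other settings. The lower one is a promoter-class peak before the start peak of RRM2 (chr2:10120086-10120947), with 4.99, 4.96, 5.25 and 5.02 against 4.22, 4.72, 4.54 and 4.65 (-0.52 ± 0.17, adjusted p = 0.0495), a call kept in 3 of 16 other settings. With the replicate block its adjusted p was 0.0748.

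Between the lines these peaks went both ways, 9 higher and 4 lower in SAS of 18 tested, against 44.9% and 33.7% of all such peaks, while every member start peak had a lower value under TMM scaling. The BUB1 gene shows both: its start peak was lower in SAS by 1.98 on the log2 scale, and its exon peak was higher, at 3.23, 3.62, 3.27 and 2.93 against 0.84, 1.31, 1.56 and 0.94 in Cal33 (2.25 ± 0.27, adjusted p = 5.16e-11). RRM2 likewise had a higher intron peak (chr2:10135854-10137945, 1.15 ± 0.16) and a lower upstream peak (-1.41 ± 0.14, and -0.66 with a mean of at least 50 counts). An intergenic peak beside BUB1B (chr15:40154884-40155864) was lower in SAS at -1.43 ± 0.19.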

How the data were processed

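ATAC-seq was run on 16 libraries, 4 independent biological replicates in each of 4 groups, with paired reads of 100 bases per the labels. The authors deposited raw counts, per the file headers, for each library over the same peaks in all 16. They also deposited a normalised signal, which divides each library's counts by 1 factor of unstated origin, and this signal was not used in any test. Per the submitters' processing notes the build is hg38 (GRCh38) and reads were demultiplexed with bcl2fastq 2.20.0. The aligner, the peak caller, the counting, the treatment of duplicates and any shift of read ends were not given in the sources used here, and each of them could move counts between peaks.

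The member genes and the lists were chosen with earlier results of these data known. The peak over the RefSeq start was added after the annotation table had been seen, because that table names 1 start per gene. It stands for the main promoter peak in the rule for named genes. That rule names every member peak called in either line, the 5 promoter peaks of smallest p in each line, the 5 highest and 5 lowest called differences between the lines with the 3 largest at other peaks, every called interaction, the 3 highest and lowest levels, and up to 5 called genes of the wider pathway per direction. Promoter sequences are RefSeq's, build GRCh38.p14, with an entry for 38 of 43 members.

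Counts were fitted per line with edgeR 4.0.16 (R 4.3.3; TMM, filterByExpr, robust quasi-likelihood test, Benjamini-Hochberg over all tested peaks). The response of the lines was compared by an interaction over all 16 libraries, and the lines by their 8 siControl libraries. SE is the size of the log2 change divided by the square root of F. The fits were tested on simulated counts first. At a log2 fold of 0.5 they recovered 16 of 97 changed peaks in Cal33 and 11 of 93 in SAS. At a log2 fold of 1 they recovered 57 of 94 and 66 of 91. They also called 8 unchanged peaks in Cal33 and 2 in SAS. Changed peaks were few, 97 and 94 of 72938 in Cal33, and were drawn from peaks of all levels. The median level of all tested peaks was 2.21 in Cal33 and 4.00 in SAS, against 4.85 and 4.87 for member start peaks. These recovery rates therefore do not give the power at member start peaks, and a peak that was not called can still have changed. Alternatives were DESeq2 1.42.0, total counts, loess offsets, no filter or a mean of at least 50 counts, promoter-class peaks alone, thinning, the sequencing runs and leaving out each library.

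The labels carry a batch tag, beside the titles, whose number is shared by the groups, so the numbers can pair the samples. The main fits leave this number out, and fits with it as a replicate block are given beside them. Same-numbered siControl and siITGA7 libraries did not deviate together: the correlations of their deviations over tested peaks ran from -0.131 to 0.00036 in Cal33 and from -0.027 to 0.0062 in SAS.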

Additional observations from a re-analysis of the deposited data

Results flagged for a closer look

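Of 62 groups of 4 libraries examined at the named peaks, 3 held a library far from the other 3, where chance gives about 1 in 20. At the POLE start peak, Cal33 siITGA7 replicate 3 stood at 4.27 log2 CPM and the others at 4.70 to 4.79. At the CDC45 start peak, Cal33 siControl replicate 3 stood at 5.92 on the scale of the line comparison and the others at 6.47 to 6.57. At the POLD1 start peak, SAS siControl replicate 4 stood at 4.31 on that scale and the others at 4.53 to 4.56. The response of the BUB1 exon peak differed between the lines by 1.54 on the log2 scale, Cal33 minus SAS, in the interaction test of edgeR (adjusted p = 0.0470), and this call was lost in 13 of 19 other settings.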

How the results depend on the processing

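The count of member start peaks called lower was 12 in Cal33. It was 1 in the libraries of 1 sequencing run and 20 in those of 2, and leaving out 1 library at a time gave 4 to 24. In SAS the count of 4 became 1 with DESeq2, 12 with no filter, 2 with a mean of at least 50 counts, 0 with promoter-class peaks alone and 0 after thinning. Leaving out 1 SAS library gave 2 to 5, with 2 in the fit without siITGA7 replicate 4. Between the lines the count of 33 became 20 with total counts and 15 with a mean of at least 50 counts, and leaving out 1 library gave 30 to 41. The 1 interaction call became 0 with total counts, 0 with DESeq2 and 0 with promoter-class peaks alone, and leaving out 1 library gave 0 to 2. With the replicate block for pairing, the counts were 10 in Cal33, 3 in SAS, 33 between the lines and 1 for the interaction, and the calls of MCM7 and CCNA2 in Cal33 and of ORC6 and the upstream RRM2 peak in SAS were lost, but no other named call. None of the named peaks recomputed in each setting changed direction. For the lines these were the 5 lowest start peaks and 3 other peaks. The small differences of CCNA2, GINS1, RFC4, CDK1 and AURKB were not recomputed in this way, so their direction in other settings is not given. Between the lines 3, 9 and 2 members were called higher with total counts, a mean of at least 50 counts and promoter-class peaks alone. The cause of these shifts was not tested, and the counts stand here without the shares of all start peaks in the same settings. The fits with sequencing runs as a term and in the 2-run libraries were chosen after seeing the data. Depth limits SAS most, where a start peak's largest count was as low as 27.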
